A study of Mus musculus with 2 samples.

Results

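Matrix remodelling genes of myeloid cells were examined as 10 genes, Mmp8, Mmp9, Mmp12, Mmp13, Mmp14, Mmp19, Timp2, Fn1, Thbs1 and Spp1, of the 32285 genes counted. They were taken by symbol, and all 10 were found in both libraries. The cells were CD45+ cells of MC38 tumors, a mouse colon carcinoma line that had been grown under the skin of both flanks of male C57BL/6 mice. In both groups the right tumor was treated by microwave ablation (MWA) at about 300 mm3, and the cells came from the left tumor, which was not ablated, on day 8. The MWA group received no TIGIT blockade (an isotype antibody per the methods of the study), and the MWA plus TIGIT group received an antibody against TIGIT, an inhibitory receptor of T cells and NK cells, by 3 injections 3 days apart from day 1 per the labels. Each group was 1 library, and the number of mice in a library was not given in the sources used here. No test between groups was therefore possible, and every interval below is a 95% interval that covers counting error only, not the spread between cells or mice. Where a pair of values is given, the MWA value stands first and the MWA plus TIGIT value second.

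Matrix metalloproteinases are secreted or membrane-bound enzymes that cut collagens, elastin and other proteins between cells. Timp2 binds and inhibits them. Fibronectin (Fn1), thrombospondin 1 (Thbs1) and osteopontin (Spp1) are secreted proteins that cells of a tumor lay down or signal with, through integrins, CD44 and CD36. In tumors, macrophages, monocytes and neutrophils are known sources of many of these proteins beside fibroblasts and tumor cells.

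After filtering, 9231 cells of the MWA group and 9127 cells of the MWA plus TIGIT group remained, with medians of 5340 and 6322 UMIs per cell. A UMI (unique molecular identifier) stands for 1 captured RNA molecule. The libraries shared 37 cell barcodes. Of these cells, 4912 and 5133 were myeloid and 4319 and 3994 were T, NK and B cells. These 10 genes and the other listed matrix genes (79 in all) did not enter the clustering, so that they shaped no class. Cells were classed by markers as monocyte-like (731 and 834 cells), Selenop Mrc1 TAM-like (1217 and 1221), Arg1 TAM-like (792 and 843), hypoxic TAM-like (689 and 731), interferon-induced TAM-like (203 and 222), cycling-like (475 and 459), neutrophil-like (99 and 88) and mature DC-like (66 and 70), where TAM stands for tumor-associated macrophage and DC for dendritic cell. The name of the hypoxic TAM-like class rests on 1 of its 10 leading genes. Its leaders were the heat shock genes Hspb1, Hspa1b and Hspa1a, beside Mt2, Ndrg1, Gpnmb and Hilpda. The name of the Arg1 TAM-like class rests on 2 of its 10 leading genes, Slc7a2 and Arg1. The same 10 genes held Folr2 and Cbr2, markers of the Selenop Mrc1 TAM-like class, whose name came second. A cluster of 27 and 24 cells led by Ctsk, Acp5, Slc9b2 and Atp6v0d2, genes known from osteoclasts, fitted no marker list and is called by its leading genes. The monocyte-like class depended on the clustering. At a finer resolution of 1.0 it held 459 and 528 cells. A cluster of 258 and 301 cells led by Mgl2, Ccl24, Il1b and Ccl17 was then named DC2, a type of DC, with the monocyte name second. Levels are given in CPM, which divides a gene's UMIs by the total of the same cells and library and multiplies by 1e6. Neutrophil-like cells had low medians of 934 and 1151 UMIs, and T cell markers summed to 488 and 484 CPM in them, against 29.1 and 17.0 CPM over all TAM-like cells.

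The genes differed in where they were found (plot of levels by class). Mmp9 was nearly restricted to the cluster led by Ctsk and to neutrophil-like cells, Mmp12 and Mmp13 were highest in hypoxic TAM-like cells, Mmp8 and Mmp19 were held mostly or in their largest share by monocyte-like cells, Timp2 and Fn1 were highest in Arg1 TAM-like cells, and Thbs1 and Spp1 were held mostly by monocyte-like cells and by the hypoxic and other TAM-like classes. Neutrophil-like cells, few in number, had high levels of both but held at most 2.79% of the Thbs1 UMIs and 0.504% of the Spp1 UMIs. Mmp14 was spread over all macrophage classes. In T, NK and B cells the levels were at most 6.37 CPM for 7 of the genes. They reached 48.9 and 55.2 CPM for Timp2, 41.8 and 44.3 CPM for Fn1, and 28.05 and 20.01 CPM for Spp1, which are taken here as the background level of these genes.

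**Figure D1:**
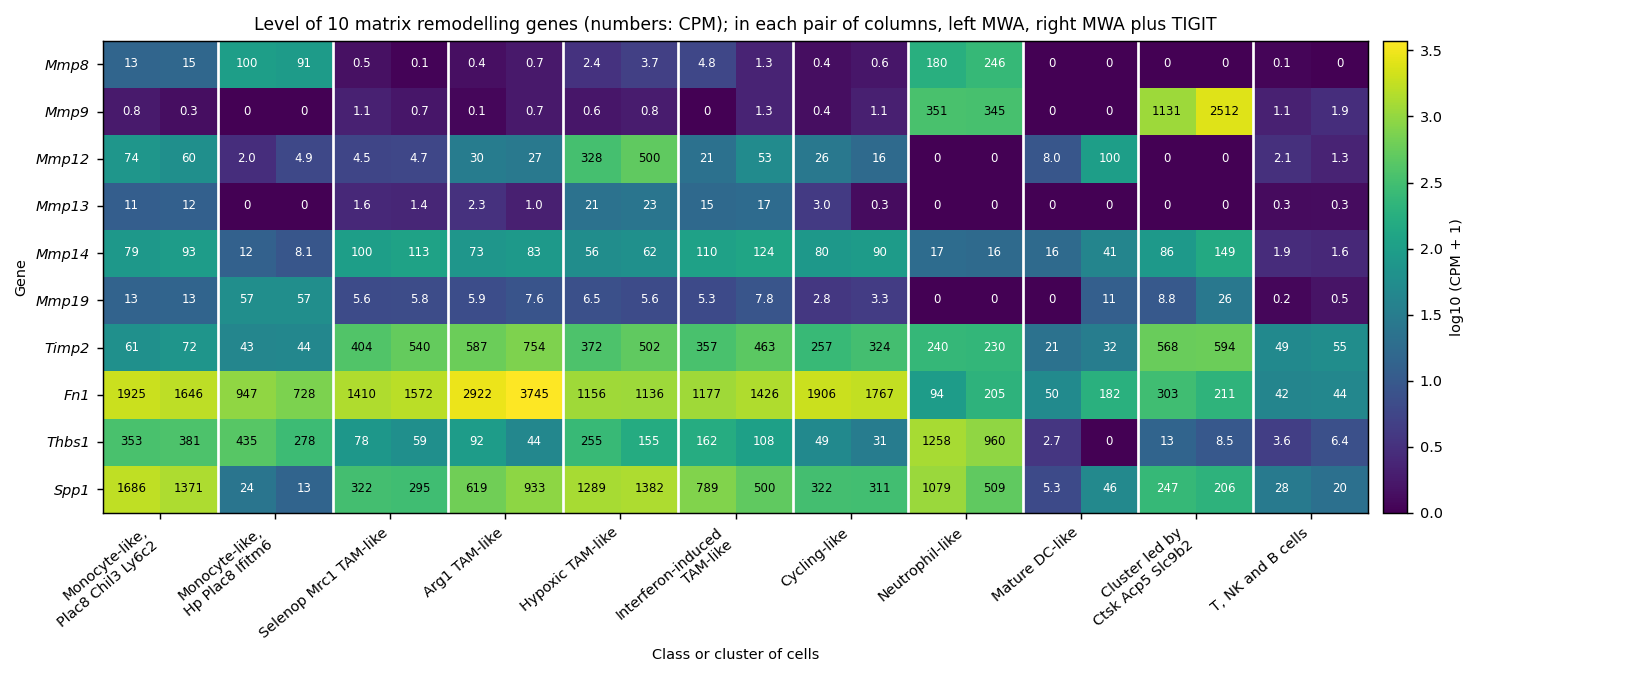
Level in CPM of each of the 10 genes (rows) in each class or cluster of cells (columns, left MWA, right MWA plus TIGIT), coloured by log10 of CPM + 1. Mmp9 reads 1131 and 2512 CPM in the cluster led by Ctsk, Mmp12 reads 328 and 500 CPM in hypoxic TAM-like cells, and Fn1 reads 2922 and 3745 CPM in Arg1 TAM-like cells.

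Mmp8, the neutrophil collagenase, stood at 180 CPM (interval 111 to 275) in neutrophil-like cells of the MWA group and at 246 CPM (166 to 351) in those of the MWA plus TIGIT group. These classes were small, so that monocyte-like cells held 64.7% and 67.8% of the myeloid UMIs of Mmp8 and neutrophil-like cells 13.5% and 14.2%. Among monocyte-like cells, Mmp8 was concentrated in the small cluster led by Hp, Plac8 and Ifitm6 (116 and 110 cells), with 100 CPM (74.5 to 132) and 91.2 CPM (68.9 to 118), against 13.4 and 14.7 CPM in the larger cluster led by Plac8, Chil3 and Ly6c2. Hp encodes haptoglobin and Chil3 a chitinase-like protein of young monocytes. In the Hp-led cluster the neutrophil gene Retnlg was at 0 and 4 UMIs and Il1r2 at 4 UMIs in both libraries. Csf3r was at 90.2 and 84.7 CPM, above the 27.4 and 28.8 CPM of the cluster led by Plac8. Neutrophil-like cells had 788 and 1206 CPM of Csf3r. S100a8 was at 298 and 290 CPM, above the 16.6 and 25.1 CPM of the cluster led by Plac8. In neutrophil-like cells S100a8 was at 38949 and 62826 CPM. S100a9 went from 7.84 to 195 CPM in the Hp-led cluster. A part of neutrophils in its Mmp8 level was not tested. The Mmp8 level of the Hp-led cluster differed between the libraries by a log2 ratio (MWA plus TIGIT over MWA) of -0.13 (-0.71 to 0.44), so that no difference could be seen at this depth.

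Mmp9, a gelatinase that cuts denatured collagen and type IV collagen, was carried by very few cells. The cluster led by Ctsk made up 0.550% and 0.468% of the myeloid cells and held 88.7% (85.9 to 91.2) and 93.7% (92.2 to 95.001) of the myeloid UMIs of Mmp9. Neutrophil-like cells held 7.11% and 3.34%, at 351 CPM (252 to 476) and 345 CPM (248 to 466). All TAM-like cells together stood at 0.658 and 0.764 CPM, below the 1.10 and 1.89 CPM of T, NK and B cells. In the cluster led by Ctsk the level was 1131 CPM (1035 to 1233) and 2512 CPM (2370 to 2659), a log2 ratio of 1.15 (1.00 to 1.30). The cells of this cluster were unlike each other, and the difference rests on a handful of them. In the MWA group 16 of 27 cells had no UMI of Mmp9, 6 had more than 20, and the 3 highest cells held 73.0% of the UMIs. In the MWA plus TIGIT group 10 of 24 cells had none, 10 had more than 20, and the 3 highest cells held 53.4%. The highest cell held 198 and 242 UMIs. The same cluster also carried Timp2 at 568 and 594 CPM and Mmp14 at 86.1 and 149 CPM, while Mmp8, Mmp12 and Mmp13 had no UMI in it. Fibroblast markers summed to 42.0 and 76.6 CPM there, from 2.88 and 2.87 CPM over all TAM-like cells. Col3a1 accounted for 2 and 25 of these UMIs, with 3 of the 7 fibroblast markers at 0. Their part in the Mmp9 level was not tested.

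Mmp12, the macrophage elastase, was held mostly by one class. It stood at 328 CPM (312 to 345) in hypoxic TAM-like cells of the MWA group and at 500 CPM (482 to 518) in those of the MWA plus TIGIT group, 14.9-fold (13.6 to 16.3) and 21.8-fold (20.3 to 23.5) above the other myeloid cells of the same library. Hypoxic TAM-like cells were 14.0% and 14.2% of the myeloid cells but held 66.5% and 74.3% of the Mmp12 UMIs. Monocyte-like cells held the next largest share, 12.1% and 8.96%, at 65.4 and 54.5 CPM, and Selenop Mrc1 TAM-like cells had 4.50 and 4.69 CPM. Even in the hypoxic class most cells had no Mmp12. A UMI was found in 27.1% and 34.7% of the cells, and the 10% of cells with most UMIs held 81.5% and 79.4% of them. With every cell thinned to 1000 UMIs the shares were 15.6% and 17.9%, against 0.237% and 0.179% in T, NK and B cells, whose medians were 3361 and 3560.5 UMIs against 6591 and 8128.

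Mmp13, a collagenase of the same chromosome 9 cluster as Mmp8 and Mmp12, was low but had the same leading class. It stood at 20.9 CPM (17.0 to 25.5) and 23.3 CPM (19.6 to 27.5) in hypoxic TAM-like cells, 5.74-fold (4.36 to 7.53) and 6.99-fold (5.50 to 8.87) above the other myeloid cells. Interferon-induced TAM-like cells followed with 15.4 and 17.0 CPM, and the Hp-led monocytes, neutrophil-like cells and the cluster led by Ctsk had no UMI. The genes also met in the same cells. Within the hypoxic class of the MWA group, Mmp13 was at 45.0 CPM in the 187 cells with a UMI of Mmp12 and at 11.4 CPM in the 502 cells without one, 3.94-fold (2.58 to 6.09). In the MWA plus TIGIT group the levels were 43.4 CPM in 254 cells and 11.3 CPM in 477 cells, 3.84-fold (2.64 to 5.65). Cells with Mmp12 had medians of 6835 and 8599 UMIs and cells without it 6523 and 7843. Fn1 was lower in the cells with Mmp12, 0.799-fold (0.750 to 0.851) and 0.762-fold (0.723 to 0.802), and the summed hypoxia markers were higher, 1.21-fold (1.16 to 1.27) and 1.22-fold (1.17 to 1.26). The summed heat shock genes were lower in them, 0.849-fold and 0.732-fold. Thbs1 was higher in them by 1.41-fold (1.25 to 1.60) in the MWA group alone, against 0.917-fold (0.798 to 1.05) with TIGIT blockade.

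Because these genes shared a leading class, the sequences at their starts are shown. The RefSeq windows on GRCm38.p6, from 250 bases before to 50 bases after a start, were read for 6 of the 10 genes, with 8 windows in all. They were searched on both strands for TGANTCA, the site of AP-1 factors, and for ACGTG. The latter is a form of the core of the site of hypoxia-inducible factors, and the form GCGTG was not searched. The windows are given on the plus strand, from the one of the Mmp12 starts with a match (chr9:7347124-7347423) and from Mmp13 (chr9:7272264-7272563), with matches to TGANTCA in capitals.
Mmp12: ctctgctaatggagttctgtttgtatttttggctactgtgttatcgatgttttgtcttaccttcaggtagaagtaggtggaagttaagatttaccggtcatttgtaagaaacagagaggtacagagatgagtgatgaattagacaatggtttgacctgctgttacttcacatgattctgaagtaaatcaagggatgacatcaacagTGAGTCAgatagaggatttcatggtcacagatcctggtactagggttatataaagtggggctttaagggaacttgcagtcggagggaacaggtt
Mmp13: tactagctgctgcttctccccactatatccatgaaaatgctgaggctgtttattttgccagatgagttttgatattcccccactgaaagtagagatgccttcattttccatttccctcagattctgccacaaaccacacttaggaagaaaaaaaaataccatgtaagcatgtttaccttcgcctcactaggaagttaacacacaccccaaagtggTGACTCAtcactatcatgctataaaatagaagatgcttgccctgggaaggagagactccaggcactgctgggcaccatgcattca
Each window held 1 match to TGANTCA, which began 44 bases before the start in Mmp12 and 35 bases before it in Mmp13. The other Mmp12 window and those of Mmp8, Mmp14, Timp2 and Spp1 held none. Of all 32851 windows of this length in the table, 7.81% held TGANTCA and 19.6% held ACGTG. The latter was found in the Mmp14 window alone among the 8, and not in those printed. A match describes the letters and not the binding of a factor.

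With TIGIT blockade Mmp12 was higher in hypoxic TAM-like cells, by a log2 ratio of 0.61 (0.52 to 0.70), and in interferon-induced TAM-like cells, where 20.8 CPM became 52.6 CPM (1.34, 0.79 to 1.93). It was lower in monocyte-like cells (-0.26, -0.49 to -0.03), and stood at 30.2 and 26.7 CPM in Arg1 TAM-like cells and at 26.2 and 16.2 CPM in cycling-like cells. The higher level depended on which cells were counted. Among cells with at most 5000 UMIs, 165 and 107 in the hypoxic class, the log2 ratio was -0.82 (-1.11 to -0.54). The heat shock genes Hspa1a, Hspa1b, Hspb1, Hsph1 and Dnajb1, a list added after the values were seen, also moved as a sum in these classes. The sum went from 1629 to 2590 CPM in hypoxic TAM-like cells and from 680 to 291 CPM in interferon-induced TAM-like cells. Dnajb1 was level in the former, at 80.6 and 79.3 CPM, and had a log2 ratio of -0.30 (-0.70 to 0.12) in the latter. The part of the heat shock genes in the Mmp12 difference was not tested. In mature DC-like cells Mmp12 went from 3 to 54 UMIs, of which 27 lay in 1 cell. Mmp13 did not differ beyond counting error in hypoxic TAM-like cells, with a log2 ratio of 0.15 (-0.23 to 0.54).

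**Figure D2:**
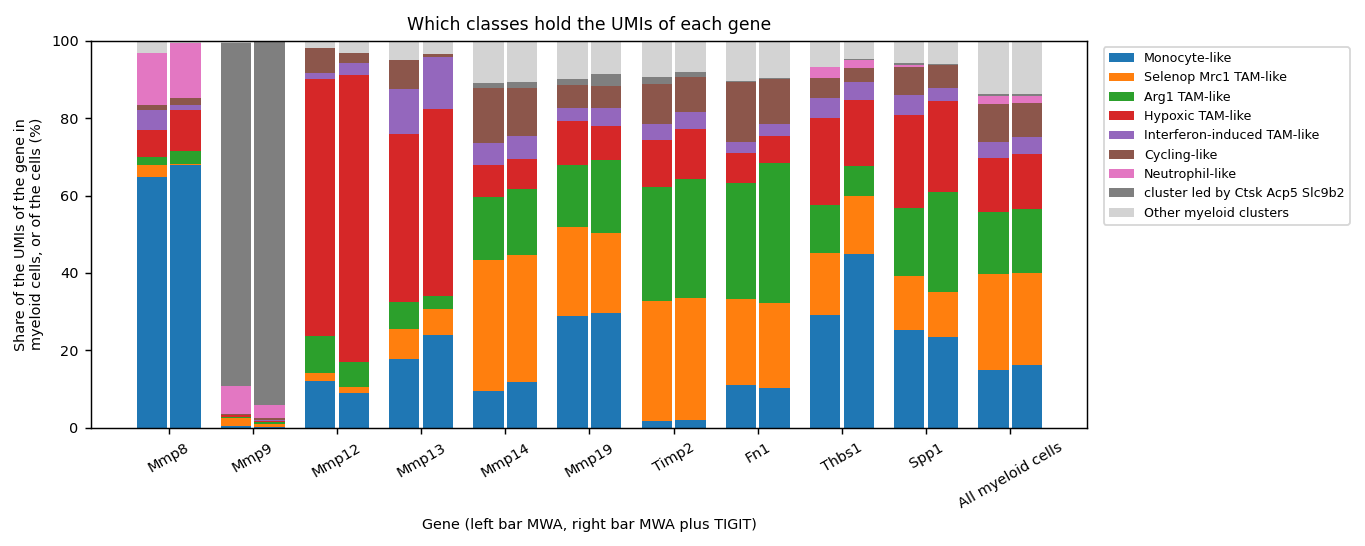
Share (%) of the myeloid UMIs of each gene held by each class of cells, and in the last pair the share of the myeloid cells themselves (left bar MWA, right bar MWA plus TIGIT). The cluster led by Ctsk holds 88.7% and 93.7% of the Mmp9 UMIs with 0.550% and 0.468% of the cells, and Selenop Mrc1 TAM-like cells hold 34.0% and 32.9% of the Mmp14 UMIs with 24.8% and 23.8% of the cells.

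Mmp14, a membrane-bound enzyme that also activates other metalloproteinases, was spread over the macrophage and monocyte classes. It stood between 55.8 and 110 CPM (MWA) and between 61.9 and 124 CPM (MWA plus TIGIT) over the 4 TAM-like classes, the cycling-like class and the monocyte-like class, and hypoxic TAM-like cells, which led for Mmp12, were the lowest of these in both libraries. The interferon-induced and Selenop Mrc1 classes, at 110 (94.6 to 127) and 99.6 CPM (93.7 to 106) in the MWA group, had overlapping intervals. Neutrophil-like cells had 17.1 and 16.4 CPM, and the Hp-led monocytes 11.8 and 8.14 CPM. Over all TAM-like cells Mmp14 went from 84.3 CPM (80.7 to 88.1) to 95.03 CPM (91.7 to 98.5), a log2 ratio of 0.17 (0.09 to 0.25), and the ratios of the 6 classes lay between 0.15 and 0.27. Among TAM-like cells with at most 5000 UMIs (370 and 220 cells) it turned to -0.38 (-0.83 to 0.07).

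Mmp19, an enzyme that cuts components of basement membranes, was low in every class. Its highest level among named classes was in the Hp-led monocytes, at 56.9 CPM (38.1 to 81.7) and 57.0 CPM (39.7 to 79.3), so that the libraries differed by a log2 ratio of 0.00 (-0.75 to 0.77). In all TAM-like cells together it stood at 5.84 and 6.43 CPM. Monocyte-like cells held 28.8% and 29.7% of its myeloid UMIs.

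Timp2, the inhibitor among the members, was broad in macrophages and low in monocytes. It stood at 587 CPM (570 to 606) and 754 CPM (737 to 772) in Arg1 TAM-like cells, 404 and 540 CPM in Selenop Mrc1 TAM-like cells, 372 and 502 CPM in hypoxic TAM-like cells and 357 and 463 CPM in interferon-induced TAM-like cells. Monocyte-like cells had 58.5 CPM (51.5 to 66.3) and 68.9 CPM (62.7 to 75.6), 0.148-fold (0.130 to 0.168) and 0.133-fold (0.121 to 0.146) the level of the other myeloid cells and close to the 48.9 and 55.2 CPM of T, NK and B cells. In the MWA plus TIGIT group Timp2 was higher in each of the 4 TAM-like classes, with log2 ratios of 0.36 to 0.43, in the cycling-like class (0.33, 0.23 to 0.43) and in monocyte-like cells (0.24, 0.01 to 0.47). Over all TAM-like cells the log2 ratio was 0.40 (0.37 to 0.44), from 448 to 592 CPM, which is below a fold of 1.5. In T, NK and B cells it was 0.17 (0.04 to 0.31). The UMIs were spread over many cells. In Arg1 TAM-like cells 92.4% and 97.2% had a UMI, and the 10% of cells with most UMIs held 30.4% and 28.2% of them. Thinned to 1000 UMIs, the shares of Arg1 TAM-like cells were 41.9% and 50.4%, against 5.89% and 5.53% of T, NK and B cells. The other inhibitors listed (Timp1, Timp3, Timp4 and Reck) summed to 6.54 and 10.2 CPM over all TAM-like cells, nearly all of it Timp1, and none reached 50 CPM.

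Fn1, the gene of fibronectin, had its highest level in Arg1 TAM-like cells, at 2922 CPM (2882 to 2962) and 3745 CPM (3706 to 3784), 1.95-fold and 2.46-fold the other myeloid cells of each library. Monocyte-like cells had 1807 and 1560 CPM, cycling-like cells 1906 and 1767 CPM, Selenop Mrc1 TAM-like cells 1410 and 1572 CPM, and hypoxic TAM-like cells 1156 and 1136 CPM. The cluster led by Ctsk had 303 and 211 CPM, neutrophil-like cells 94.2 and 205 CPM and mature DC-like cells 50.4 and 182 CPM. The difference between the groups turned with the class. With TIGIT blockade Fn1 was higher in Arg1 TAM-like cells (log2 ratio 0.36, 0.33 to 0.38), interferon-induced TAM-like cells (0.28, 0.20 to 0.36) and Selenop Mrc1 TAM-like cells (0.16, 0.13 to 0.19). It was level in hypoxic TAM-like cells (-0.03, -0.08 to 0.03), and lower in cycling-like cells (-0.11, -0.15 to -0.07) and monocyte-like cells (-0.21, -0.26 to -0.17). Within the monocyte-like class it was lower in both clusters, by -0.23 (-0.27 to -0.18) in that led by Plac8 and by -0.38 (-0.57 to -0.19) in that led by Hp. Arg1 TAM-like cells held 29.9% and 36.3% of the myeloid UMIs of Fn1, with 16.1% and 16.4% of the myeloid cells. In that class 97.6% and 99.2% of the cells had a UMI, with medians of 19 and 34 UMIs per cell.

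**Figure D3:**
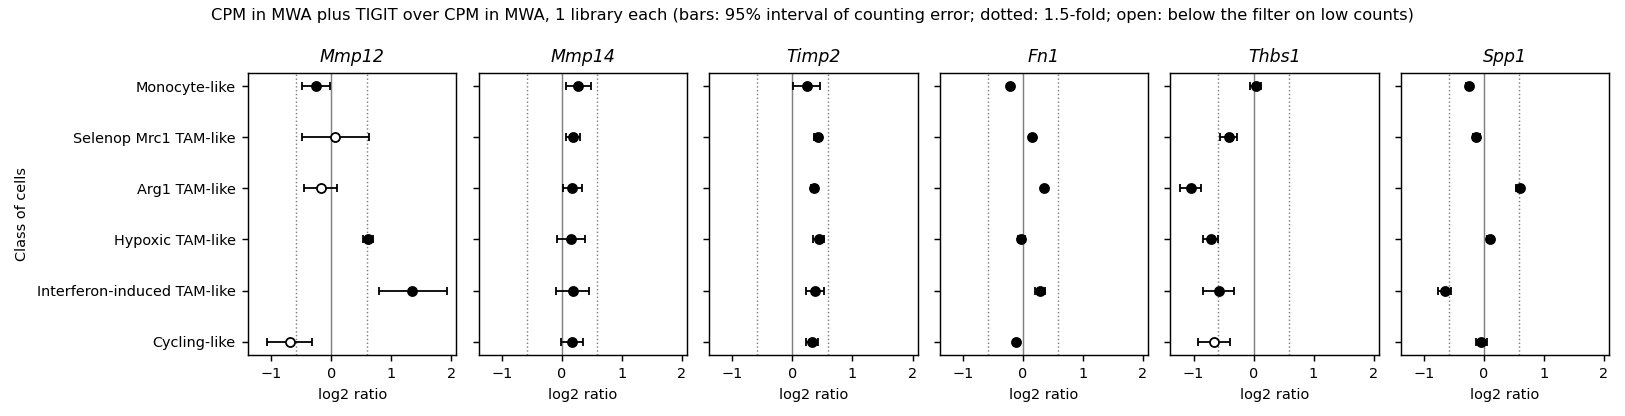
Log2 ratio of CPM, MWA plus TIGIT over MWA, of 6 genes in 6 classes of myeloid cells (points, with 95% intervals of counting error; dotted lines mark a fold of 1.5). Timp2 is right of 0 in all 6 classes, Thbs1 is at -1.05 in Arg1 TAM-like cells and at 0.03 in monocyte-like cells, and Spp1 is at 0.59 in Arg1 TAM-like cells and at -0.66 in interferon-induced TAM-like cells.

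Thbs1, which encodes a matricellular protein that binds CD36 and CD47, was highest in neutrophil-like cells at 1258 CPM (1063 to 1479) and 960 CPM (794 to 1150), followed among named classes by monocyte-like cells at 363 CPM (345 to 381) and 371 CPM (357 to 386). Among macrophages hypoxic TAM-like cells led, at 255 and 155 CPM, and Selenop Mrc1 TAM-like cells had 78.1 and 58.6 CPM. It was lower in the MWA plus TIGIT group in each of the 4 TAM-like classes. The log2 ratio was -1.05 (-1.23 to -0.87) in Arg1 TAM-like cells, from 92.1 to 44.5 CPM, -0.72 (-0.84 to -0.59) in hypoxic, -0.58 (-0.84 to -0.33) in interferon-induced and -0.41 (-0.55 to -0.27) in Selenop Mrc1 TAM-like cells. Over all TAM-like cells 122 CPM (117 to 126) became 76.2 CPM (73.2 to 79.3), a log2 ratio of -0.68 (-0.75 to -0.60). The summed heat shock genes went from 193 to 140.0 CPM in Arg1 TAM-like cells and from 170 to 110.1 CPM in Selenop Mrc1 TAM-like cells, with Hspa1a from 86.8 to 43.1 CPM in the former. The sum was also lower in interferon-induced but higher in hypoxic TAM-like cells, and its part in the Thbs1 difference was not tested. Thinned to 1000 UMIs, 9.06% and 5.68% of the TAM-like cells had a UMI, against 0.403% and 0.384% of T, NK and B cells. In monocyte-like cells the log2 ratio was 0.03 (-0.06 to 0.13), with 0.11 (0.01 to 0.21) in the cluster led by Plac8 and -0.64 (-0.94 to -0.35) in the Hp-led cluster. The monocyte-like share of the myeloid Thbs1 UMIs was 29.1% and 45.0%. The size of the TAM-like difference depended on how cells were classed. In Arg1 TAM-like cells the log2 ratio was -0.13 (-0.26 to 0.00) with called doublets kept and -0.33 (-0.47 to -0.19) with the members kept in the clustering, and over all TAM-like cells it was -0.44 (-0.51 to -0.37) and -0.51 (-0.58 to -0.43), less than a fold of 1.5.

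Within monocyte-like cells, those with a UMI of Thbs1 (338 of 731 cells and 341 of 834 cells) also had more Spp1, 1.54-fold (1.47 to 1.62) and 1.48-fold (1.42 to 1.55) the level of those without, and more Fn1, 1.37-fold (1.31 to 1.44) and 1.27-fold (1.22 to 1.32). Mmp13 was higher in them 3.78-fold (1.76 to 9.02) and 4.30-fold (2.45 to 7.93), and Mmp19 1.68-fold (1.04 to 2.76) and 2.57-fold (1.72 to 3.87). The medians of UMIs per cell were 5473.5 and 7601 in cells with Thbs1 and 5344 and 7514 in cells without it. The summed hypoxia markers were 1.61-fold and 1.73-fold higher in the cells with Thbs1. Mmp8 was at 0.847-fold (0.558 to 1.28) and 0.688-fold (0.475 to 0.986) in them, and Mmp12 at 0.659-fold (0.512 to 0.846) and 1.17-fold (0.942 to 1.45). Mmp14 and Timp2 did not differ beyond counting error in either library. The class pools the clusters led by Plac8 and by Hp, which differ in Spp1, Mmp8 and Mmp13. The part of this mixture in the folds was not tested.

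Spp1, the gene of osteopontin, was highest in monocyte-like cells of the MWA group at 1486 CPM (1449 to 1523), and in hypoxic TAM-like cells of the MWA plus TIGIT group at 1382 CPM (1352 to 1412). In the other library these classes had 1243 and 1289 CPM. Within the monocyte-like class the cluster led by Plac8 carried nearly all of it, at 1686 and 1371 CPM against 23.5 and 13.0 CPM in the Hp-led cluster, which is at the level of T, NK and B cells. The cells of a class were uneven. In monocyte-like cells 47.9% and 51.6% had a UMI and the 10% of cells with most UMIs held 80.1% and 78.6% of the total, while in hypoxic TAM-like cells 75.3% and 78.7% had a UMI and the top 10% held 49.1% and 50.7%. Between the groups Spp1 went different ways. In Arg1 TAM-like cells it was higher with TIGIT blockade, from 619 CPM (601 to 637) to 933 CPM (913 to 952), a log2 ratio of 0.59 (0.54 to 0.64), of which 580 of 8886 UMIs lay in 1 cell. Without the 1% of cells with most Spp1 in each library the log2 ratio was 0.40 (0.34 to 0.46). In hypoxic TAM-like cells it was 0.10 (0.05 to 0.15). Spp1 was lower in interferon-induced TAM-like cells, from 789 to 500 CPM (-0.66, -0.77 to -0.54), in monocyte-like cells (-0.26, -0.30 to -0.21), in Selenop Mrc1 TAM-like cells (-0.13, -0.19 to -0.06) and in neutrophil-like cells, from 1079 to 509 CPM (-1.08, -1.55 to -0.63). Over all TAM-like cells the log2 ratio was 0.18 (0.15 to 0.21).

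**Figure D4:**
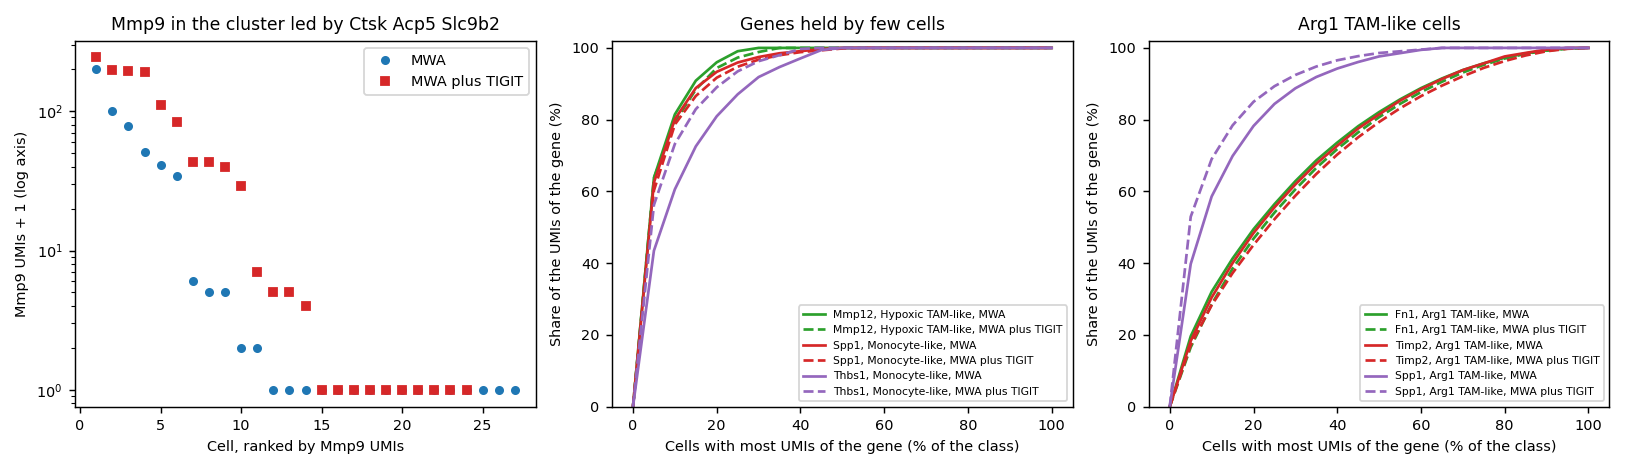
Spread of UMIs over cells. Left, Mmp9 UMIs + 1 on a log axis in each cell of the cluster led by Ctsk, ranked; middle and right, the share (%) of the UMIs of a gene held by the given share (%) of cells of a class with most of them. Few cells hold most UMIs of Mmp9, Mmp12 and the monocyte-like Spp1. For the latter genes 10% of the cells hold 81.5% and 80.1% of the UMIs in the MWA group, whereas 10% of the Arg1 TAM-like cells hold 32.0% of their Fn1.

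The members were then read against all genes. A gene counted as past the fold where its CPM differed between the libraries by at least 1.5-fold, among genes that reached 50 CPM in either library of the class with 20 or more UMIs over both. This is a rule of size and no test. Over all TAM-like cells 6 members passed this filter on low counts. With TIGIT blockade none was higher, where 0.403% of all 2481 genes were, and 1 was lower (Thbs1), against 0.161% of all genes. Of 5 members measured in Arg1 TAM-like cells 1 was higher (Spp1), against 0.813% of all genes, and 1 lower (Thbs1), against 0.528%. Of 6 in hypoxic TAM-like cells 1 was higher (Mmp12), against 1.12%, and 1 lower (Thbs1), against 0.608%. Spp1 in Arg1 TAM-like and Mmp12 in hypoxic TAM-like cells lay close to the fold, a log2 ratio of 0.585. TMM factors, an alternative scaling, shift the log2 ratios by -0.062 and -0.033 in these classes, which takes both members below it. The shares of all genes given here are without these factors. Of 6 in interferon-induced TAM-like cells 1 was higher (Mmp12), against 1.21%, and 1 lower (Spp1), against 1.25%. None of 5 passed in Selenop Mrc1 TAM-like cells, against 0.422% higher and 0.154% lower, none of 4 in cycling-like cells, against 0.106% and 0.355%, and none of 6 in monocyte-like cells, against 0.161% and 0.321%. In neutrophil-like cells 1 of 6 was higher (Fn1) and 1 lower (Spp1), where 13.2% and 18.4% of all genes passed, and in mature DC-like cells both members measured were higher (Mmp12 and Fn1), where 17.2% and 4.04% of all genes passed. These classes held few cells, and the shares of the neutrophil-like class lay near those of all genes. Mmp12 reached 50 CPM in interferon-induced TAM-like and mature DC-like cells only in the MWA plus TIGIT library, where it was higher. Thbs1 reached it in Arg1 TAM-like cells only in the MWA library. These members were thus counted through the library in which they were higher, as the filter allowed for all genes. The median log2 ratio over all TAM-like cells was 0.22 for the 6 members and 0.05 for all genes. Members below the filter were Mmp8, Mmp9 and Mmp13 in each TAM-like class, the monocyte-like and the cycling-like class, beside Mmp19, and Mmp12 in Selenop Mrc1 TAM-like, Arg1 TAM-like and cycling-like cells and Thbs1 in cycling-like cells. In neutrophil-like cells Mmp12, Mmp13, Mmp14 and Mmp19 were below it, and in mature DC-like cells all but Mmp12 and Fn1. Mmp8, Mmp9 and Mmp19 passed in neutrophil-like cells (Mmp8 and Mmp9), the Hp-led cluster (Mmp8 and Mmp19) or the cluster led by Ctsk (Mmp9), and Mmp13 passed in none.

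Genes with the most similar pattern were ranked by Pearson's r of log2(CPM + 10) over 16 points, 8 classes in both libraries, among 4348 genes. The points share libraries and a few classes carry most of the range, so that the r values are a description. For Mmp12 these were Fbxo32 (0.82), Mt2 (0.82), a metallothionein, and Lgals3 (0.82), which encodes galectin-3, and for Mmp13 Tec (0.91), Sap30 (0.88) and Lgals3 (0.83). Timp2 was nearest to the lysosomal proteases Ctsd (0.96) and Ctsb (0.95) and to Folr2 (0.94), a folate receptor of macrophages. Fn1 was nearest to the scavenger receptor gene Msr1 (0.98), Itgb5 (0.97) and Lyz2 (0.96), and Thbs1 to Cstb (0.96), Cebpb (0.95) and Tpd52 (0.94). Spp1 was nearest to Mgst1 (0.91), Pkm (0.90), an enzyme of glycolysis, and P4hb (0.90). Mmp14 was nearest to Srgap2 (0.98), Hivep3 (0.97) and Adap2 (0.97), and Mmp19 to Ucp2 (0.79), Klf13 (0.78) and Ccl24 (0.77). Mmp8 was nearest to Cxcl3 (0.99), Cd44 (0.99) and Gsr (0.98). Mmp9 was nearest to Mirt1, G0s2 and Gm20406 (each 1.00), since the cluster led by Ctsk, which is no named class, was not among the points. Over all pairs of members the highest r were 0.93 for Mmp8 and Mmp9, 0.88 for Mmp14 and Fn1, 0.80 for Mmp8 and Thbs1, 0.77 for Thbs1 and Spp1 and 0.75 for Mmp12 and Mmp13, and the lowest was -0.69 for Mmp9 and Mmp14.

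The other genes of the pathway showed few differences of this size. Of 17 other matrix metalloproteinases listed, 16 were in the files, and they summed to 9.63 and 8.95 CPM over all TAM-like cells with none measured there. Of 10 ADAM and ADAMTS proteases 5 were measured over all TAM-like cells and none passed the fold. Adam8, Adam10, Adam15 and Adam17 stood at 169 and 155, 122 and 134, 186 and 196, and 98.2 and 108 CPM. Of 7 genes of the plasminogen system 2 were measured, Plau at 58.4 and 52.7 CPM and its receptor Plaur at 135 and 115 CPM, and none passed. Plaur passed in cycling-like cells, from 94.8 to 60.7 CPM (log2 ratio -0.64, -0.84 to -0.45), and in neutrophil-like cells, from 454 to 763 CPM (0.75, 0.25 to 1.26). Of all genes 0.355% were lower by the fold in cycling-like cells, and 13.2% were higher by it in neutrophil-like cells. Of 18 other matrix and matricellular proteins 3 were measured over all TAM-like cells and none passed. These were Tgfbi (812 and 790.5 CPM), Lgals3 (2158 and 2245 CPM) and Ecm1, extracellular matrix protein 1, which went from 142 to 204 CPM (0.53, 0.47 to 0.59). Ecm1 passed in hypoxic TAM-like cells, from 144 to 220 CPM (0.61, 0.47 to 0.74), and in interferon-induced TAM-like cells, from 131 to 208 CPM (0.67, 0.44 to 0.91). Both intervals overlapped that of all TAM-like cells. Of 13 receptors for osteopontin, fibronectin and thrombospondin 8 were measured over all TAM-like cells and none passed. Cd44, a receptor of osteopontin, was at 159 and 148 CPM, Cd47 at 180 and 211 CPM, Lrp1 at 437 and 471 CPM and Itgb5 at 302 and 327 CPM. In mature DC-like cells Adam8 (71.7 and 122 CPM), Adam17 (13.3 and 53.8 CPM), Tgfbi (143 and 273 CPM) and Lrp1 (50.4 and 83.5 CPM) were past the fold, a class in which 17.2% of all genes were higher by it. In the cluster led by Ctsk Plau went from 26.5 to 104 CPM (1.98, 1.04 to 3.02) and Plaur from 53.0 to 19.2 CPM (-1.47, -2.76 to -0.31), in 27 and 24 cells. Adam8, Adam10, Adam17, Itgav, Itga5, Lrp1, Ccn1 and Col3a1 also passed the fold in these few cells. Serpinb2, an inhibitor of plasminogen activators, passed it in the Hp-led monocytes, at 31.4 and 60.3 CPM, and Adam19 (65.03 and 42.5 CPM) and Itga4 (114 and 180 CPM) did in the 66 and 28 DC1-like cells. For the cluster led by Ctsk, the Hp-led monocytes and DC1-like cells no share over all genes was computed, so these calls have no background. Plau and Plaur in the cluster led by Ctsk, Serpinb2, Adam19 and the mature DC-like Adam17 reached 50 CPM only in the library where they were higher.

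In TAM-like cells as a whole, fibroblast markers summed to 2.88 and 2.87 CPM with none of the 7 at 0, endothelial markers to 3.05 and 3.73 CPM, and epithelial or tumor markers to 5.97 and 9.94 CPM. T cell markers were lower in the MWA plus TIGIT group in TAM-like cells, at 29.1 and 17.0 CPM. In monocyte-like cells NK markers summed to 69.1 and 10.2 CPM, of which Gzma made 52.6 and 2.29 CPM. Their part in the differences of the members was not tested. The clusters without a name also held members. The low-UMI cluster led by Mcpt2, Cma1 and Gm26917 (medians of 1412.5 and 1160.5 UMIs) had Fn1 at 2735 and 2717 CPM. It also had Thbs1 at 396 and 289 CPM and Mmp14 at 165 and 131 CPM. Cpa3, a marker of basophils and mast cells, was at 0 and 27 UMIs in this cluster. At a resolution of 1.0 a cluster led by Mcpt2, Cma1 and Tpsb2 held no cell of the MWA library. The mixture of cells may thus differ between the libraries, and its part in these levels was not tested. The cluster led by the replication genes Hells, Uhrf1 and Mcm5 had Fn1 at 1791 and 1871 CPM and Thbs1 at 54.5 and 29.1 CPM.

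The genes lie on GRCm38 as follows. Mmp8 (chr9:7558456-7568485), Mmp12 (chr9:7344381-7369499) and Mmp13 (chr9:7272514-7283331) lie within one stretch of chromosome 9. Mmp9 is at chr2:164940780-164955850, Thbs1 at chr2:118111876-118127133, Mmp14 at chr14:54431612-54445364, Mmp19 at chr10:128790910-128800824, Timp2 at chr11:118301069-118355740, Fn1 at chr1:71585520-71653200 and Spp1 at chr5:104435118-104441050. Mmp12 overlaps Mmp1b, Mmp19 overlaps Tmem198b and Gm47093, Fn1 overlaps Apol7d and Thbs1 overlaps Gm29233 on the opposite strand, whereas Cep295nl lies within the span of Timp2 and Gm42793 within that of Spp1 on the same strand, so that reads of these pairs may not be told apart where their exons meet.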

How the data were processed

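Single-cell RNA libraries (10x Genomics, 3′ chemistry) of CD45+ cells were made from 2 samples, 1 per group. The deposited files hold UMI counts per gene and cell, made by the authors with Cell Ranger on the mouse genome mm10, as a filtered matrix for each library. The matrix header names version 4.0.0 and the submitters' processing notes name version 6.1.1. The libraries held 10217 and 10190 barcodes with 66152465 and 78751205 UMIs (MWA first). No cell annotation was used here.

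Cells with under 200 genes (2 and 12) or over 10% mitochondrial UMIs (179 and 276) were removed, as were 806 and 786 called doublets. The caller, which simulates doublets and counts them among each cell's neighbours, found 67% of 300 doublets added to the MWA library. The limit of 5000 UMIs per cell that the study used was not applied, since 55.2% and 60.3% of barcodes lay above it, but was tried as an alternative. Clustering used Seurat 5.3.0 in R 4.3.3, a later version than the study's, with settings of the study for all cells (2000 variable features, integration over 3000 features, 40 components, resolution 0.1) and 79 matrix genes left out. Myeloid cells were then clustered again at a resolution of 0.5, which is not a setting of the study and which made the classes used here. Clusters were named from marker lists, with the rules of naming set after the first clustering was seen, and a name means likeness only. The members, lists and markers were chosen with earlier results of these data known.

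UMIs were summed per class and library and scaled to CPM. Exact Poisson intervals of levels, exact binomial (Clopper-Pearson) intervals of shares and exact conditional binomial intervals of ratios were computed in Python 3.11.15 with scipy 1.17.1. They cover counting error only. With 1 library per group no test was run. Simulated libraries with 200 changed genes were drawn with independent Poisson counts, which the intervals assume, so that coverage near 95% was set in advance. They cannot show how the intervals do where UMIs are concentrated in few cells. The intervals held the true ratio for 95.1% of genes in Arg1 TAM-like cells and 96.7% in neutrophil-like cells. In the latter class 27.9% of unchanged genes passed a fold of 1.5. Shares of cells in which a gene was found were taken after thinning each cell to 1000 UMIs, which left out shallower cells (10 and 4 of the TAM-like cells, 105 and 91 of the T, NK and B cells).

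The genes named are the 10 members, the 3 genes most like each in pattern, and genes of 6 pathway lists that were past the fold or stood among the best measured of a list. Alternatives were the edgeR 4.0.16 TMM factors, other filters, other classings of cells and other depths of thinning. All 10 gene IDs matched the GRCm38 annotation. Promoter windows of 6 members came from RefSeq.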

Additional observations from a re-analysis of the deposited data

Results flagged for a closer look

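The log2 ratio of 3 genes (MWA plus TIGIT over MWA) had opposite signs in different classes of cells, and the differences between classes were not tested, since each group was 1 library. For Mmp12 the ratio was 3.65 in mature DC-like cells and -0.26 in monocyte-like cells, 3.91 apart, and its interval lay above 0 in 3 and below 0 in 1 of 4 classes measured. The mature DC-like value rests on 3 and 54 UMIs. Mature DC-like and interferon-induced TAM-like cells passed the filter for Mmp12 through the MWA plus TIGIT library alone. For Fn1 the ratio was 1.85 in mature DC-like cells and -0.21 in monocyte-like cells, 2.06 apart, with intervals above 0 in 5 and below 0 in 2 of 8 classes. In mature DC-like cells 30 of 98 UMIs of the MWA plus TIGIT library lay in 1 cell. For Spp1 the ratio was 0.59 in Arg1 TAM-like cells and -1.08 in neutrophil-like cells, 1.68 apart, with intervals above 0 in 2 and below 0 in 4 of 7 classes.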

How the results depend on the processing

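No paired analysis was possible because each group was 1 library, and no library could be left out. The cause of the changes below was not tested. The Mmp12 difference turned with depth: among cells with at most 5000 UMIs the log2 ratio was -0.82 in hypoxic TAM-like cells and -0.56 over all TAM-like cells. Over all TAM-like cells this limit also gave -0.38 for Mmp14, 0.31 for Timp2, 0.15 for Fn1 and -0.95 for Thbs1. The classing of cells mattered for many values. With cells classed by marker scores, 54 ratios, levels or shares lay outside their main interval, 20 lay inside it and 2 ratios reversed. At a resolution of 1.0, 24 ratios or shares lay outside it and 42 inside. When cells were classed by marker scores, Fn1 turned to -0.48 in neutrophil-like and to -0.20 in mature DC-like cells. Over all TAM-like cells the ratios were then 0.43 (Mmp12), 0.23 (Fn1) and -0.40 (Thbs1). TMM factors gave 0.36 (Timp2), 0.22 (Fn1) and 0.14 (Spp1). Kept doublets gave 0.20 (Fn1), -0.44 (Thbs1) and 0.22 (Spp1), and a resolution of 1.0 gave 0.29 (Fn1) and -0.80 (Thbs1). For Thbs1, members kept in the clustering gave -0.51 and subtraction of the level of T, NK and B cells -0.76. Of the alternatives chosen after seeing the data, leaving out the 1% of cells with most UMIs of a gene gave -0.88 (Thbs1) and 0.11 (Spp1), and the mean over cells of per-cell CPM gave -0.76 (Thbs1) and 0.23 (Fn1). Without the filter on low counts 16.4% of all genes passed the fold in all TAM-like cells. Limits of UMIs and of mitochondrial share were set on the classes as first made, and classes left with under 50 cells in a library gave no value. UMIs per class limit what can be seen, and differences of Mmp8 and Mmp19 in the Hp-led monocytes and of Mmp13 in hypoxic TAM-like cells could not be told from counting error.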
